A study of Homo sapiens with 12 samples.

Results

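The human mitochondrial genome carries 37 genes, and all 37 are described here. They were found as the identifiers whose symbol starts with MT- in the gene annotation, and they make up 37 of the 60604 identifiers counted. The set comprises 13 protein genes, 2 ribosomal RNA genes and 22 transfer RNA genes. Of the protein genes, 7 encode subunits of respiratory complex I, 1 of complex III, 3 of complex IV and 2 of complex V. Transcripts of 12 protein genes, both ribosomal RNAs and 14 tRNAs read along the plus strand, and those of MT-ND6 and 8 tRNAs along the minus strand.

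The cells were HEK293T, a transformed line from human embryonic kidney. In the first group, cells received a plasmid for dCas9-VP160 together with 6 guide RNAs aimed at the CD34 promoter, and they are called guide cells. dCas9-VP160 is a Cas9 that binds but does not cut DNA, fused to a transcription activator. In the second group, cells received dCas9-VP160 with no CD34 guide (dCas9-alone cells). In both groups the labels name the plasmid sgRNA-dCas9-VP160-P2A-EGF. In the third group no plasmid was given (no-plasmid cells). The treatment protocol says that these cells had the transfection reagents without DNA, whereas the design text calls them non-transfected. All plasmid-treated cells were transfected transiently for 48 h with lipofectamine and 5.4 pmol of plasmid in 100 mm dishes, so the samples are mixed populations and not a clone. Each group had 4 RNA-seq libraries, from 2 technical replicates in each of 2 experiments with separate batches of cells. No group received a plasmid lacking dCas9-VP160, so the effects of plasmid DNA and of the fusion protein cannot be told apart. Values below run in the order experiment 1 replicate 1, experiment 1 replicate 2, experiment 2 replicate 1, experiment 2 replicate 2.

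Mitochondrial DNA is copied and transcribed inside the organelle by nuclear-encoded proteins. Its transcription rests chiefly on the polymerase POLRMT with the factors TFAM and TFB2M. Each strand is read as a long polycistronic RNA, from which the tRNAs that lie between the other genes are cut out. Most of the mRNAs released in this way are polyadenylated, with ND6 as the known exception, and in several of them the poly(A) tail completes the stop codon. All 13 proteins are core subunits of the respiratory chain or of ATP synthase, and they are made on mitochondrial ribosomes built around the 12S and 16S rRNAs. The steady-state level of each mRNA reflects both transcription and decay.

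The sequences below show where neighbouring genes share bases or end, because counts of short and overlapping genes rest on few unshared bases. They are GENCODE release 29 transcripts on GRCh38, written 5′ to 3′. MT-ATP8 (chrM:8483-8572, plus strand) is given by its last 90 bases with the 46 it shares with MT-ATP6 in capitals, and MT-ND4L (chrM:10727-10766, plus strand) by its last 40 with the 7 it shares with MT-ND4 in capitals. The last 30 bases follow for MT-CO1 (chrM:7416-7445, plus), MT-CO3 (chrM:9961-9990, plus), MT-CYB (chrM:15858-15887, plus) and MT-ND6 (chrM:14149-14178, minus), the mRNAs that stand at the extremes of the comparisons, with the stop codon or the part of it that DNA encodes in capitals. The 4 tRNA genes are MT-TI (chrM:4263-4331, plus), MT-TQ (chrM:4329-4400, minus, with the 3 bases opposite MT-TI in capitals), MT-TS2 (chrM:12207-12265, plus) and MT-TT (chrM:15888-15953, plus), which were among the tRNA genes whose counts differed between groups.
MT-ATP8 end: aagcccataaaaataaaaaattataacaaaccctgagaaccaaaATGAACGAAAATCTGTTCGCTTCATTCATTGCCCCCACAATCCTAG
MT-ND4L end: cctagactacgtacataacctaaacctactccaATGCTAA
MT-CO1 end: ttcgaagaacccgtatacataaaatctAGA
MT-CO3 end: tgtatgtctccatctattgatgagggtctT
MT-CYB end: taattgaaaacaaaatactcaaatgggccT
MT-ND6 end: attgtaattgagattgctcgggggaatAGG
MT-TI: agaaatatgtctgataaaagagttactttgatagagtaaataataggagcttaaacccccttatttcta
MT-TQ: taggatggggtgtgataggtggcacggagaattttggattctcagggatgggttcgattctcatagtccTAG
MT-TS2: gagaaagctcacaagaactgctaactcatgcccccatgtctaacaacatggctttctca
MT-TT: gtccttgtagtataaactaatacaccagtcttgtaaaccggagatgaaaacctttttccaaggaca

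In the annotation, 5 protein genes (MT-ND2, MT-CO3, MT-ND3, MT-ND4 and MT-CYB) end on 1 base of a stop codon, MT-ND1 ends on 2 bases, and the other 7 end on whole codons. The capitals at the ends of MT-CO3 and MT-CYB are such single bases, and those of MT-CO1 and MT-ND6 are the whole triplets AGA and AGG. The labels name the assay dirRNAseq, but the kits they describe do not mark strand, and the strand setting of the counting is not stated. If the libraries were made with these kits, reads from a gene and from RNA of the opposite strand could not be separated. This touches MT-ND6 and the 8 minus-strand tRNAs most, because the opposite strand there is part of the abundant plus-strand precursor.

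The 12 libraries held 6750035 to 11932244 gene counts, with 26115 to 28418 genes detected in each. The guides' target CD34 was at 92.1 to 107 CPM, counts scaled to a common library size, in guide cells, 0.790 to 1.04 CPM in dCas9-alone cells and 1.53 to 2.47 CPM in no-plasmid cells. The epithelial genes KRT8 (701 to 894 CPM) and KRT18 (335 to 406 CPM) and the kidney-lineage gene EYA1 (11.4 to 18.8 CPM) were present in every library, whereas the kidney marker PAX2 stayed between 0.113 and 1.18 CPM and markers of blood, endothelium, liver and heart did not exceed 0.454 CPM. Among the other markers listed for the line, VIM was at 246 to 384 CPM. LHX1 was at 2.22 to 6.14 CPM, INA at 1.77 to 7.94 CPM and NEFM at 0.463 to 3.66 CPM. The replicate 2 libraries of the guide cells stood apart from their replicate 1 libraries in mitochondrial counts in both experiments, and the comparisons of the members with guide cells are therefore given with and without them. The labels name replicates of one cell batch as technical, so the 2 libraries of an experiment were summed and each group was tested as 2 experiments.

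Mitochondrial genes took 5.57%, 7.50%, 5.59% and 7.44% of gene counts in the guide libraries. The shares were 5.57%, 5.63%, 5.14% and 5.41% in dCas9-alone libraries, and 8.69%, 8.41%, 8.78% and 8.31% in no-plasmid libraries. All 4 dCas9-alone libraries and all 4 guide libraries lay below every no-plasmid library. The guide libraries formed a low pair, both replicate 1, which sat within the dCas9-alone range, and a high pair, both replicate 2. Exact 95% binomial limits of the lowest share were 5.13% and 5.16%, and they cover counting error only. Over experiments the share was 6.49% ± 0.116 in guide cells, 5.45% ± 0.212 in dCas9-alone cells and 8.53% ± 0.00401 in no-plasmid cells (SD, n = 2 each). An exact permutation test of 2 experiments against 2 cannot give a two-sided p below 0.333, so the shares are given without a test. The share is relative to all gene counts. In these bulk samples, fewer mitochondria-rich cells, less mitochondrial RNA per cell and more nuclear-encoded RNA per cell cannot be told apart.

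**Figure D1:**
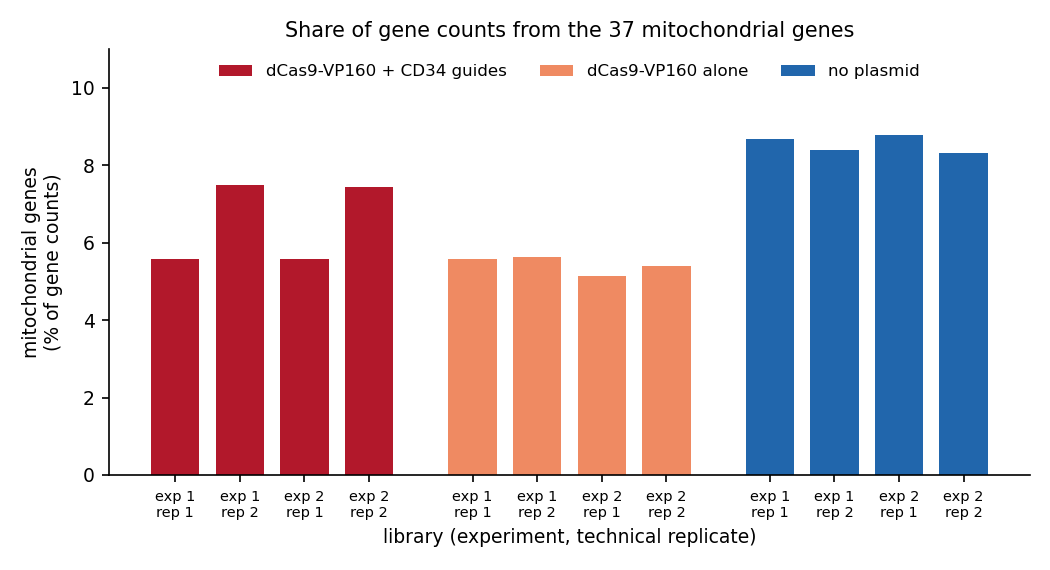
Percent of each library's gene counts that fell on the 37 mitochondrial genes (y axis), for guide, dCas9-alone and no-plasmid cells (x axis). Each bar is 1 of 12 libraries, by experiment (exp) and technical replicate (rep); the replicate 2 guide libraries (7.50% and 7.44%) stand above their replicate 1 libraries (5.57% and 5.59%), and all no-plasmid libraries lie at 8.31% or more.

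Ribosomal RNA made up most of the mitochondrial counts in each group, 60.4% in guide cells, 63.3% in dCas9-alone cells and 63.4% in no-plasmid cells. Other library measures are given beside these shares, without a test. The nuclear-retained RNAs MALAT1 and NEAT1 together took 0.301% to 0.376% of counts in guide cells, 0.325% to 0.341% in dCas9-alone cells and 0.449% to 0.586% in no-plasmid cells. Histone genes took 0.0581% to 0.0825% in guide cells, 0.0804% to 0.0950% in dCas9-alone cells and 0.0980% to 0.122% in no-plasmid cells. Cytosolic ribosomal protein genes took 2.64% to 3.04% in guide cells, 2.87% to 3.16% in dCas9-alone cells and 2.66% to 3.23% in no-plasmid cells. The MALAT1 and NEAT1 shares of both transfected groups lay below those of no-plasmid cells and overlapped each other, as did the histone shares, and the ribosomal protein shares of all 3 groups overlapped. The part of these measures in the mitochondrial result was not tested.

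Per kilobase of gene, MT-RNR2, the 16S rRNA of the large mitochondrial ribosomal subunit, had the highest counts of all members in every group. It averaged 24143 CPM per kb in guide cells, 20459 in dCas9-alone cells and 32970.2 in no-plasmid cells. MT-ND3, a small subunit of complex I, was the least abundant of the 15 rRNA and protein genes at 202 CPM per kb in guide cells, 141 in dCas9-alone cells and 241 in no-plasmid cells. The top and bottom thus differed 119-fold in guide cells, 145-fold in dCas9-alone cells and 137-fold in no-plasmid cells. How evenly the kits captured rRNA, tRNA and mRNA was not tested, so these values rank counts and not amounts of RNA. The mRNAs of complex IV came next to the 16S rRNA, and their order changed between groups. MT-CO1, the catalytic subunit of complex IV, had rank 2 in guide cells at 6166 CPM per kb, rank 3 in dCas9-alone cells at 4132.5 and rank 4 in no-plasmid cells at 5229. MT-CO2, which takes electrons from cytochrome c, averaged 5524 CPM per kb in guide cells, 4397 in dCas9-alone cells and 6935 in no-plasmid cells. Of the 14 pairs of neighbours in the order, the library ranges overlapped in 13 in guide cells, 7 in dCas9-alone cells and 8 in no-plasmid cells, so much of the order below the 16S rRNA is not resolved. Subtracting 100 bases from every gene length changed the rank of 5 genes in guide cells, 5 in dCas9-alone cells and 6 in no-plasmid cells.

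**Figure D2:**
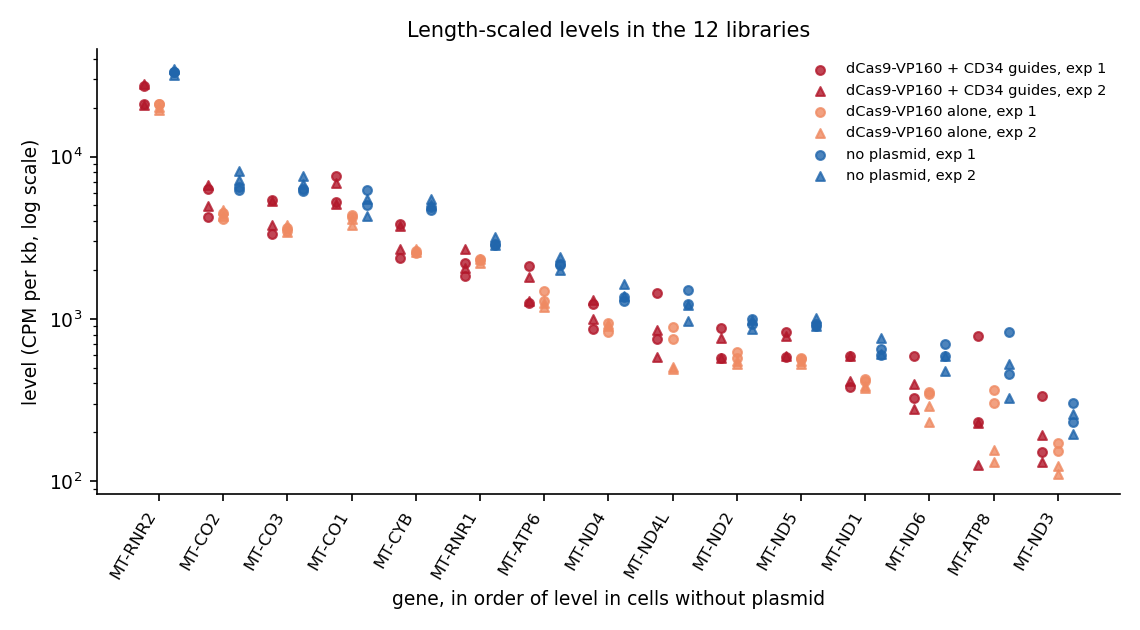
Level of the 15 rRNA and protein genes in each of the 12 libraries, in normalised CPM per kilobase of gene on a log axis, with genes ordered by their no-plasmid mean. MT-RNR2 stands above all others and MT-ND3 is lowest, a difference of 137-fold in no-plasmid cells.

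The first comparison asks what dCas9-VP160 without CD34 guides did to these RNAs. All 15 rRNA and protein genes had lower normalised levels in dCas9-alone cells than in no-plasmid cells, and 14 passed the test, all lower. Among all 19662 genes tested 24.6% were called lower and 26.6% higher. The median log2 fold change of the 15 was -0.74, with a range of -1.16 to -0.34, against a median of -0.0020 over all genes. Calls are from edgeR's quasi-likelihood test with an experiment term, at an adjusted p under 0.05. The library ranges did not overlap for 13 of the 15 genes, all but MT-CO1 and MT-ATP8, while 17.9% of all genes had lower ranges that did not overlap.

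MT-CYB, the only mitochondrially encoded subunit of complex III, had 2888, 2991, 2944 and 3077 CPM in dCas9-alone libraries, against 5359, 5578, 6211 and 5748 CPM in no-plasmid libraries. Every dCas9-alone library lay well below every no-plasmid library. The log2 fold change was -0.94 ± 0.030 (approximate SE; edgeR adjusted p = 3.85e-19). MT-CO3, the third core subunit of complex IV, had 2714, 2833, 2675 and 2974 CPM in dCas9-alone libraries, against 4928, 4793, 5991 and 5297 CPM in no-plasmid libraries. The ranges were again separate, with a log2 fold change of -0.89 ± 0.035 (edgeR adjusted p = 2.33e-17).

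Among the complex I subunits, MT-ND6, the sole minus-strand mRNA, had 186, 182, 122 and 153 CPM in dCas9-alone libraries, against 365, 309, 309.7 and 251 CPM in no-plasmid libraries. All 4 dCas9-alone values were lower, and the log2 fold change was -0.92 ± 0.045 (edgeR adjusted p = 2.93e-15). Because the kits do not mark strand, the MT-ND6 counts may include plus-strand RNA. MT-ND1, a membrane subunit near the quinone site, had 395, 407, 360.4 and 369 CPM in dCas9-alone libraries, against 627, 570.2, 724 and 581 CPM in no-plasmid libraries. Its ranges did not overlap and its log2 fold change was -0.69 ± 0.042. Among the other complex I subunits, MT-ND2 stood at -0.72, MT-ND3 at -0.79, MT-ND4 at -0.64 and MT-ND5 at -0.74. MT-ND4L, which shares its end with MT-ND4, fell by 0.90 on the log2 scale with a wider SE of 0.118 (edgeR adjusted p = 0.00537). MT-ATP6, the proton-channel subunit of ATP synthase, fell by 0.74, and MT-CO2 by 0.65. MT-ATP8, the second ATP synthase subunit and the gene with the largest fitted change (-1.16), did not pass, with an SE of 0.350 and an edgeR adjusted p of 0.114.

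The rRNAs fell by different fitted amounts. MT-RNR2 had 32809, 32863, 30230.4 and 31480.2 CPM in dCas9-alone libraries, against 51568, 52039, 53688 and 49694 CPM in no-plasmid libraries. MT-RNR1, the 12S rRNA of the small ribosomal subunit, had 2212, 2219, 2100.2 and 2221 CPM in dCas9-alone libraries, against 2749, 2714, 3054 and 2724 CPM in no-plasmid libraries. Both sets of ranges were separate, but the 16S rRNA fell by 0.69 ± 0.027 (edgeR adjusted p = 2.33e-17) and the 12S rRNA by 0.34 ± 0.038 (edgeR adjusted p = 3.99e-08). MT-CO1 fell by 0.34 ± 0.028 (edgeR adjusted p = 1.03e-10), with overlapping ranges. The change of 1 rRNA or mRNA was not tested against that of another.

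All 15 genes were lower in dCas9-alone cells in each experiment taken alone. The median log2 difference was -0.66 in experiment 1 and -0.81 in experiment 2. It was -0.76 and -0.59 between the replicate 1 and replicate 2 libraries of experiment 1, and -1.01 and -0.66 between those of experiment 2. An interaction test on 12 libraries called a change between experiments for 0 of the 15, with 0 at an unadjusted p under 0.05. Of all genes 0.0116% were called. The fitted changes of the 15 ran from -0.62 to 0.09 (median -0.16), with 14 below 0. The test rests on technical spread and called almost no gene, so it cannot show that the experiments were alike. When each experiment was fitted on its own libraries, 2 of 15 genes were called lower in experiment 1, against 19.3% of all genes, and 9 of 15 in experiment 2, against 19.7% of all genes.

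**Figure D3:**
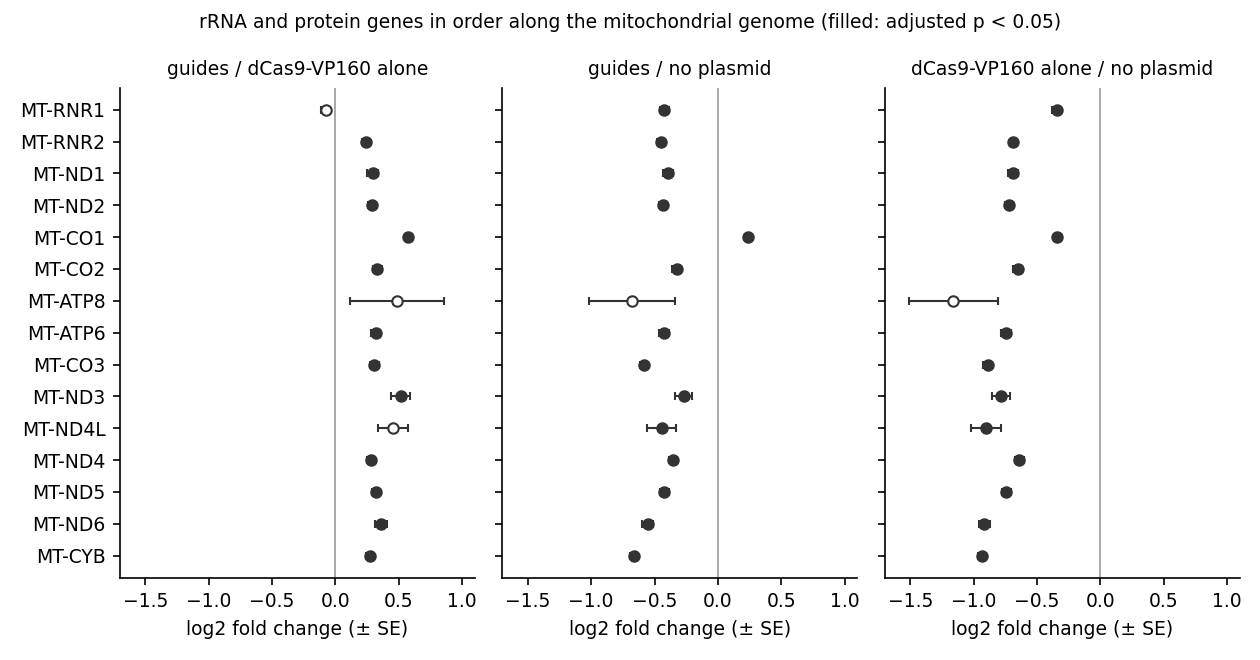
Log2 fold change (points) with approximate SE (bars) of the 15 rRNA and protein genes for guide over dCas9-alone cells, guide over no-plasmid cells and dCas9-alone over no-plasmid cells, in genome order. Filled points passed an edgeR adjusted p under 0.05; in dCas9-alone against no-plasmid cells all points lie between -1.16 and -0.34, and MT-CO1 is the only gene above 0 in guide against no-plasmid cells.

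The second comparison asks what the 6 CD34 guides added to dCas9-VP160. Of the 15 genes, 12 were called higher in guide cells than in dCas9-alone cells and none lower, against 4.16% of all genes called higher and 3.41% lower. The median log2 fold change was 0.32, with a range of -0.08 to 0.58, and the median over all genes was -0.0040. The guide libraries of 2 genes, MT-CO1 and MT-ND5, all lay above the dCas9-alone libraries, against 4.43% of all genes with higher ranges that did not overlap. The 3 genes not called were MT-RNR1 (-0.08), MT-ATP8 (0.48) and MT-ND4L (0.45).

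This increase rested on the replicate 2 guide libraries. Without them, 1 of the 15 genes (MT-CO1, 0.33) was called higher and 1 (MT-RNR1) lower in guide than in dCas9-alone cells, and the median log2 fold change was 0.017. Of all genes, 4.59% were then higher and 2.88% lower. Without the replicate 1 guide libraries, 12 were higher and none lower, against 2.05% of all genes higher, and the median was 0.57. In the replicate 1 libraries alone, guide cells had 6 of 15 genes above and 9 below dCas9-alone cells in experiment 1 (median log2 difference -0.06), and 13 above and 2 below in experiment 2 (median 0.15). In the replicate 2 libraries, 14 of 15 were above in experiment 1 (median 0.54) and 15 of 15 in experiment 2 (median 0.51). With the 12 libraries fitted separately and an experiment term, 1 of 15 was called higher, against 4.61% of all genes.

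The gap between technical replicates was tested within each group on the 12 libraries, where the spread is that between technical replicates. These tests, within and between groups, were added after the gap was seen in the same libraries. They give its size and are not independent evidence for it. In guide cells, 13 of the 15 genes were higher in replicate 2 than in replicate 1 and none lower, against 0.261% of all 17218 genes tested that were higher. Those 13, with 2 tRNA genes, were 15 of the 45 genes called higher. The median log2 difference of the 15 was 0.58, and it was -0.0025 over all genes. In dCas9-alone cells edgeR called none of the 15 (5 at an unadjusted p under 0.05), and 0.0% of all genes. The median of the 15 was 0.06 there, and it was 0.0044 over all genes. In no-plasmid cells MT-ND1 (-0.23) and MT-ND3 (-0.39) were lower in replicate 2 and none higher, against 0.227% of all genes called lower, with medians of -0.14 for the 15 and 0.0026 over all genes. There 14 of the 15 lay below 0, and 12 had an unadjusted edgeR p under 0.05, against 14 in guide cells. A smaller gap in the opposite direction was thus present across most members in no-plasmid cells. Averaged over the 3 groups, none of the 15 differed by replicate number (0 at an unadjusted p under 0.05), with 0.00581% of all genes called. The medians were 0.14 for the 15 and 8.5e-05 over all genes.

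The replicate gap itself differed between groups. It was larger in guide cells than in dCas9-alone cells for 12 of 15 genes, against 0.0987% of all genes, and those 12 were among the 17 genes called. It was larger in guide cells than in no-plasmid cells for 13 of 15, against 0.656% of all genes. MT-CYB shows the pattern, with 4362 and 4294 CPM in the replicate 2 guide libraries and 2715 and 3076 CPM in the replicate 1 guide libraries. The first pair lies between the dCas9-alone libraries, at most 3077 CPM, and the no-plasmid libraries, at least 5359 CPM, and the second pair lies around the dCas9-alone values. For MT-RNR2 the replicate 2 guide libraries had 42428 and 43804 CPM and the replicate 1 libraries 32921 and 32509 CPM. The same 2 libraries were thus the high ones for rRNA and mRNA. The mitochondrial share in guide cells was 1.35-fold higher in replicate 2 of experiment 1 and 1.33-fold higher in replicate 2 of experiment 2. The MALAT1 and NEAT1 share was higher by 1.09-fold and 1.14-fold in the same 2 libraries. The ribosomal protein share was 1.00-fold and 1.04-fold that of replicate 1. Genes detected did not separate the replicate numbers, at 27372 in replicate 2 and 26907 in replicate 1 of experiment 1, and 26115 in replicate 2 and 26854 in replicate 1 of experiment 2. What differed in the handling of these libraries is not given in the labels, and its part in the result was not tested.

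The replicate gap in guide cells was wider for shorter genes. It was 0.89 for MT-ND3 and 0.77 for MT-ND4L, and it was 0.33 for MT-RNR1 and 0.40 for MT-RNR2. For MT-ATP8 it was 1.45 and was not called (edgeR adjusted p = 0.282). As a description, the Spearman correlation with gene length over the 15 genes was -0.836. The same correlation was 0.571 for fold changes of dCas9-alone over no-plasmid cells and 0.475 for those of experiment 2 over 1. Shorter genes thus tended to have the lower fold changes in those 2 comparisons, and a link with length was not particular to the replicate gap. The genes share the same libraries and are not independent replicates. MT-CO1 differed by 0.48 but did not pass (SE 0.178, edgeR adjusted p = 0.594).

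**Figure D4:**
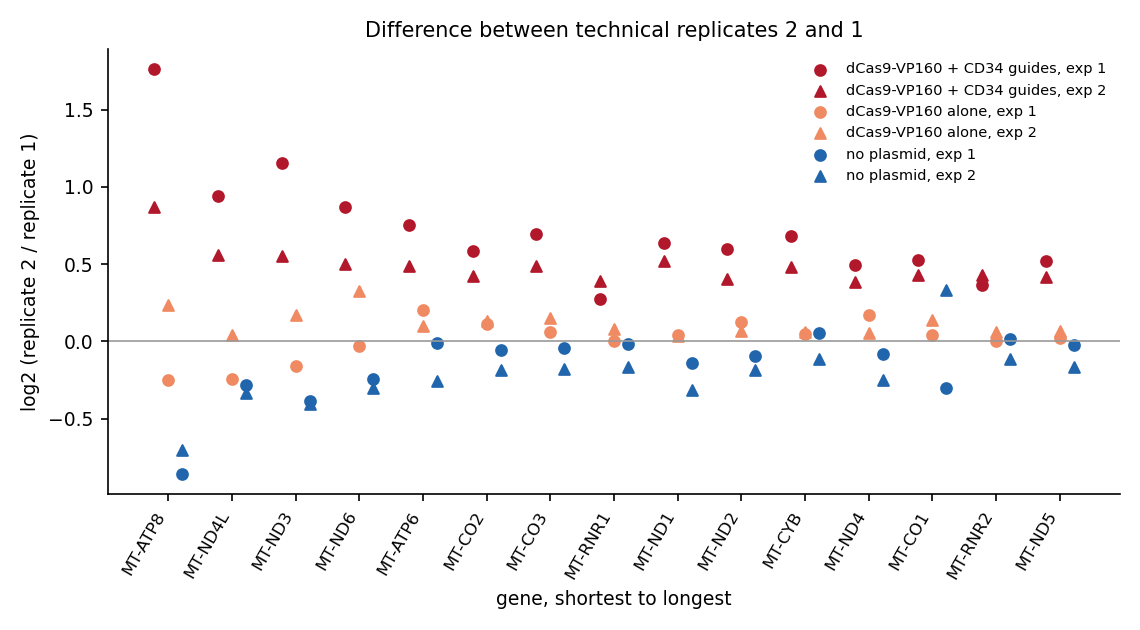
Log2 ratio of replicate 2 over replicate 1 for the 15 rRNA and protein genes, from the shortest to the longest, in guide, dCas9-alone and no-plasmid cells; circles are experiment 1 and triangles experiment 2. In guide cells all 15 genes lie above 0 in both experiments, with medians of 0.64 and 0.48, while the medians are 0.043 and 0.080 in dCas9-alone cells and -0.081 and -0.19 in no-plasmid cells.

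The third comparison sets guide cells against no-plasmid cells, and it shares libraries with both comparisons above. Of the 15 genes, 13 were called lower and 1, MT-CO1, higher in guide cells, against 25.9% of all genes called lower and 26.7% higher. The median log2 fold change was -0.43, with a range of -0.68 to 0.24, and the median over all genes was -0.016. The library ranges of 6 genes (MT-RNR1, MT-RNR2, MT-ND1, MT-CO3, MT-ND5 and MT-CYB) lay wholly below those in no-plasmid cells, against 19.3% of all genes. MT-CYB fell by 0.66 ± 0.030 (edgeR adjusted p = 4.20e-16), MT-CO3 by 0.58 ± 0.035 and MT-ND6 by 0.56 ± 0.044. MT-RNR1 fell by 0.42 ± 0.038 and MT-RNR2 by 0.45 ± 0.027. Without the replicate 2 guide libraries, 14 of the 15 genes (all but MT-CO1) were lower and none higher, with a median of -0.69, against 22.7% of all genes lower. Without the replicate 1 guide libraries, 10 were lower and MT-CO1 higher, with a median of -0.15, against 21.2% of all genes lower. With the 12 libraries fitted separately and an experiment term, 8 genes were lower, against 29% of all genes, and none higher.

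MT-CO1 was the one mRNA called higher in guide than in no-plasmid cells. It had 8117, 11686, 7859.9 and 10602 CPM in guide libraries, 6510.0, 6707, 5825 and 6402 CPM in dCas9-alone libraries, and 9582, 7791, 6680.3 and 8429 CPM in no-plasmid libraries. All 4 guide libraries exceeded all 4 dCas9-alone libraries, and the no-plasmid libraries overlapped both. The log2 fold change of guide over dCas9-alone cells was 0.58 ± 0.028 (edgeR adjusted p = 1.20e-13), and that of guide over no-plasmid cells 0.24 ± 0.028 (edgeR adjusted p = 5.29e-08). Both fits sum a low and a high guide library in each experiment, so these SEs leave out the gap between technical replicates. Without the replicate 2 guide libraries the log2 fold change was 0.33 over dCas9-alone cells, still called, and -9.7e-05 over no-plasmid cells, not called. As a share of mitochondrial counts, MT-CO1 took 14.4% ± 0.799 in guide cells, 11.8% ± 0.192 in dCas9-alone cells and 9.44% ± 0.838 in no-plasmid cells (SD, n = 2 each). MT-CYB took 5.45% ± 0.112 in guide cells, 5.53% ± 0.296 in dCas9-alone cells and 6.66% ± 0.328 in no-plasmid cells. MT-RNR1 took 3.17% ± 0.355 in guide cells, 4.07% ± 0.0705 in dCas9-alone cells and 3.26% ± 0.0879 in no-plasmid cells. MT-CO1 thus took its highest share in guide cells, MT-RNR1 in dCas9-alone cells and MT-CYB in no-plasmid cells; with 2 experiments a group these shares were not tested.

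MT-ATP8 varied most among the mRNAs. It had 48.0, 163, 25.9 and 47.5 CPM in guide libraries, 75.1, 63.1, 27.3 and 32.2 CPM in dCas9-alone libraries, and 173, 95.3, 109.7 and 67.4 CPM in no-plasmid libraries. One guide library, replicate 2 of experiment 1, lay within the no-plasmid range, and the other 3 lay below it. MT-ATP8 passed the test in none of the 3 group comparisons with all libraries. The bases it shares with MT-ATP6 are the capitals of its sequence above, and how reads on them were assigned was not given in the sources used here. MT-ND3 had 52.3, 117, 45.3 and 66.4 CPM in guide libraries, 59.2, 53.0, 38.2 and 43.0 CPM in dCas9-alone libraries, and 104, 79.9, 89.7 and 67.8 CPM in no-plasmid libraries. MT-ND4L had 224, 431, 173 and 255 CPM in guide libraries, 263, 222, 146 and 151 CPM in dCas9-alone libraries, and 448, 368, 364 and 288 CPM in no-plasmid libraries. In both genes the dCas9-alone libraries lay below all no-plasmid libraries, and replicate 2 of experiment 1 was the one guide library that reached the no-plasmid levels.

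Experiment 2 differed from experiment 1 in both directions. With treatment in the fit, MT-CO2 (0.15), MT-CO3 (0.09) and MT-ND4 (0.12) were called higher in experiment 2, against 12% of all genes. MT-ND2 (-0.12), MT-CO1 (-0.13), MT-ATP6 (-0.10), MT-ND3 (-0.43), MT-ND4L (-0.56) and MT-ND6 (-0.38) were called lower, against 12.2% of all genes. The median of the 15 was -0.04 and that of all genes -0.00019. MT-ND3, MT-ND4L and MT-ND6 had the widest called differences. None of the 15 was called when the 12 libraries were fitted separately with an experiment term, against 13.8% of all genes higher and 13.8% lower.

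The tRNA genes gave few counts, 196 to 735 per library in all. Reads on a tRNA gene can come from the mature tRNA or from a longer precursor, and these cannot be told apart. MT-TN and MT-TK, for asparagine and lysine, had no count in any library, where the limit allowed by 0 counts is 0.251 to 0.444 CPM per library. In all, 8 of the 22 tRNA genes did not pass the filter on low counts, with at most 28 counts each over the 12 libraries. The most counted tRNA gene was MT-TP, for proline, with 2062 counts. Its levels were 16.4, 27.1, 12.6 and 21.8 CPM in guide libraries, 19.6, 18.6, 11.3 and 13.3 CPM in dCas9-alone libraries, and 25.7, 18.8, 21.2 and 18 CPM in no-plasmid libraries. The dCas9-alone libraries reached into the no-plasmid range, and the log2 fold change of -0.39 ± 0.099 passed the test (edgeR adjusted p = 0.00158). The call was lost under 7 of 22 alternatives, with log2 fold changes of -0.65 to -0.20 and adjusted p up to 0.529.

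Of the 14 tRNA genes tested, MT-TP was the one lower and MT-TS2, for serine, the one higher in dCas9-alone than in no-plasmid cells. Among all genes 24.6% were lower and 26.6% higher. The median log2 fold change of the 14 was 0.31. MT-TS2 had 2.13, 1.17, 0.655 and 0.75 CPM in dCas9-alone libraries, against 0.352, 0.177, 0.463 and 0.187 CPM in no-plasmid libraries, which is 6 to 22 counts against 2 to 4 counts. The ranges were separate, and the log2 fold change was 2.10 ± 0.484 (edgeR adjusted p = 6.89e-04). The call was lost under 3 of the 18 alternatives in which the gene was tested. With so few counts in no-plasmid cells, MT-TS2 passed the filter on low counts through the transfected groups, where it was high. Its calls against no-plasmid cells are therefore not independent evidence of a rise. In guide over dCas9-alone cells, 3 tRNA genes were higher and none lower, against 4.16% of all genes higher and 3.41% lower. They were MT-TI (0.99), MT-TY (0.88) and MT-TT (0.73), for isoleucine, tyrosine and threonine, with a median of 0.48 over the 14. The MT-TI call was lost under 9 of 22 alternatives and reversed in sign under 1 more, the MT-TY call was lost under 11 and the MT-TT call under 9. In guide over no-plasmid cells, 6 were higher and none lower, with a median of 0.62, against 26.7% of all genes higher and 25.9% lower. MT-TT, the most clearly higher of these, had 3.40, 6.46, 4.08 and 5.99 CPM in guide libraries, 3.49, 3.37, 2.18 and 2.84 CPM in dCas9-alone libraries, and 2.47, 1.86, 1.39 and 2.80 CPM in no-plasmid libraries. All 4 guide values lay above all 4 no-plasmid values, and the log2 fold change was 1.21 ± 0.203 (edgeR adjusted p = 1.51e-05). MT-TI rose by 1.29, MT-TQ, for glutamine, by 0.62, MT-TY by 0.61, MT-TD, for aspartate, by 1.54 and MT-TS2 by 1.79 in the same comparison. Without the replicate 2 guide libraries, MT-TQ and MT-TT were called higher, MT-TP lower, and MT-TS2 stood at -0.70 and was not called. Of all genes, 25.4% were then higher and 22.7% lower. None of the 14 was then higher than in dCas9-alone cells, and MT-TS2 was lower, against 4.59% of all genes higher and 2.88% lower. MT-TI and MT-TQ share the 3 bases in capitals above, on opposite strands, and kits that do not mark strand cannot separate reads on them.

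Summed tRNA levels were 38.9, 79.2, 30.8 and 48.5 CPM in guide libraries, 55.4, 39.2, 21.4 and 26.7 CPM in dCas9-alone libraries, and 58.8, 35.3, 31.2 and 29.8 CPM in no-plasmid libraries. In every group the mean of experiment 2 was the lower one. Of the 14 genes tested, 11 were called lower in experiment 2, all but MT-TM, MT-TS1 and MT-TT, and none higher. Among all genes 12.2% were lower and 12% higher. The median of the 14 was -1.25, and the library ranges of the experiments did not overlap for 1 of them. The largest were MT-TW (-2.24), MT-TE (-2.03) and MT-TF (-1.90), for tryptophan, glutamate and phenylalanine.

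**Figure D5:**
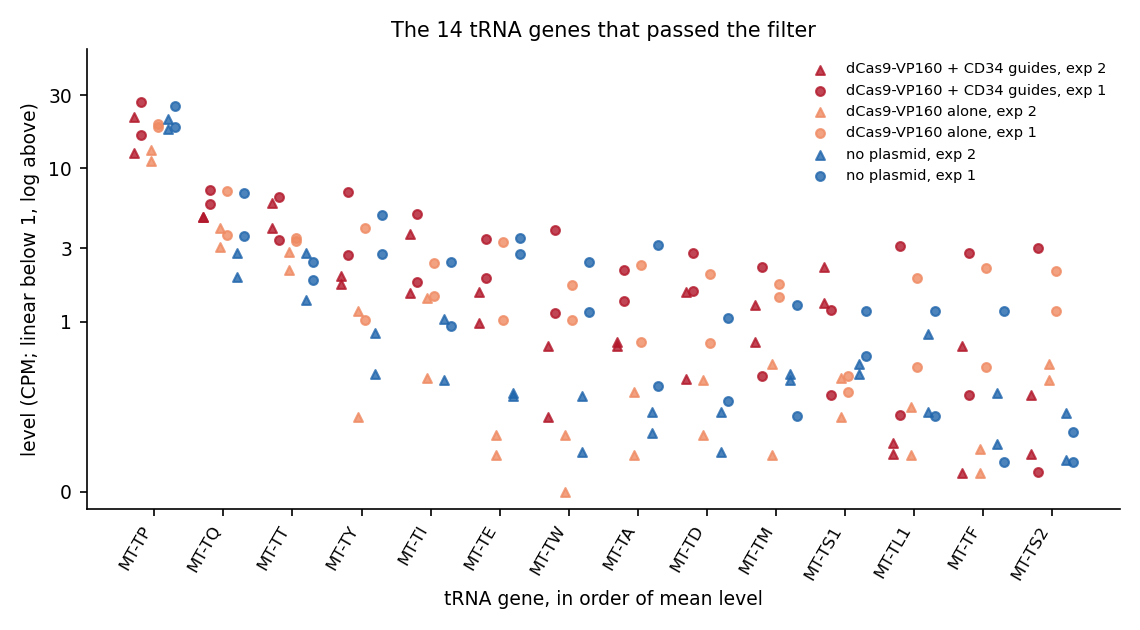
Level in normalised CPM of the 14 tested tRNA genes in each library (axis linear below 1 and logarithmic above), in guide, dCas9-alone and no-plasmid cells. MT-TP is the highest, at 11.3 to 27.1 CPM, and the others reach at most 7.22 CPM.

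Nuclear copies of mitochondrial genes could share reads with the members. The table held 400 such copies, of which 9 passed the filter. Over the 12 libraries, copies of MT-ATP6 had 17.9% as many counts as the gene itself, nearly all on MTATP6P1 with 23051 counts against 128931 for MT-ATP6. Copies of MT-ND2 had 2.0%, and those of the other protein genes and of MT-RNR2 at most 0.251%. Copies of tRNA genes were not searched for, and MT-RNR1 has no such value. How reads that match both a gene and a copy were handled is not known, so their effect on the members was not tested. MTATP6P1 had a mean of 203 CPM in guide cells, 161 CPM in dCas9-alone cells and 252 CPM in no-plasmid cells, and its log2 fold change of dCas9-alone over no-plasmid cells was -0.65, beside -0.74 for MT-ATP6. Of the 9 copies tested, 4 were lower and none higher in that comparison (median -0.65), against 24.6% of all genes lower. In guide over dCas9-alone cells 1 was higher and none lower (median 0.34), against 4.16% of all genes higher. In guide over no-plasmid cells 2 were lower and none higher (median -0.29), near the 25.9% of all genes lower.

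The nuclear genes whose products copy, transcribe and process mitochondrial RNA are given by their own counts. Of 55 tested, 33 were higher and 8 lower in dCas9-alone than in no-plasmid cells, with a median of 0.21, against 26.6% of all genes higher and 24.6% lower. The polymerase POLRMT had a log2 fold change of 0.0017 and was not called, while TFAM, which packages mitochondrial DNA and helps start its transcription, was higher at 0.45 (edgeR adjusted p = 3.81e-08), with means of 165 CPM in dCas9-alone cells and 120 CPM in no-plasmid cells. Transcripts of the helicase SUPV3L1 (0.47) and the exonuclease PNPT1 (0.52), which together degrade mitochondrial RNA, were higher, as were those of the mRNA-stabilising protein SLIRP (0.54) and its partner LRPPRC (0.12). The termination-factor relative MTERF2 was lower (-0.72). The largest increase was in TRIT1, which modifies cytosolic and mitochondrial tRNAs, at 1.41, and it was lower in guide than in dCas9-alone cells (-0.59). In guide over dCas9-alone cells 2 of the 55 were higher and 3 lower (median -0.0014), against 4.16% and 3.41% of all genes.

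Of 80 nuclear-encoded subunits of the same respiratory complexes tested, 22 were higher and 28 lower in dCas9-alone than in no-plasmid cells (median -0.00092). The share higher is near the 26.6% of all genes, and 24.6% of all genes were lower. In guide over dCas9-alone cells 1 was higher and 6 lower (median -0.05), against 4.16% and 3.41% of all genes. In guide over no-plasmid cells 20 were higher and 34 lower (median -0.05), against 26.7% and 25.9% of all genes. In dCas9-alone over no-plasmid cells, COX5B of complex IV (-0.50), UQCR10 of complex III (-0.44) and NDUFA1 of complex I (-0.43) were the most lowered at 5 CPM or more. Cytochrome c, CYCS, was the most raised at 0.70, followed by UQCRFS1 (0.57), the iron-sulphur protein of complex III, and COX7A2L (0.42), which joins complexes III and IV. The lists of nuclear genes were chosen for their function, and neither was tested as a set. The authors' deposited table of 97 changed genes held none of the 37 mitochondrial genes and none of these nuclear genes.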

How the data were processed

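Total RNA (1 ng) was made into SMART-Seq HT and Nextera XT libraries, per the labels' protocols; these kits do not mark strand, although the labels name the assay dirRNAseq. The authors deposited raw counts per gene for 12 libraries with 92 spike-in rows; per the submitters' processing notes, Trim Galore 0.3.7, STAR 2.6.0c, Picard 2.17.1, DESeq2 1.16.1 and hg38 were used. Neither the labels nor the files name the program that counted reads or its annotation. The authors also deposited a table of 97 genes with a mean normalised signal, log2 fold changes, a test score and p-values, per the file headers; it was read for membership only.

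Spike-ins were left out of totals. Symbols, lengths and sequences came from GENCODE release 29 (56812 of 60604 identifiers matched). Technical replicates were summed to 6 libraries (2 experiments in each of 3 groups) and fitted with edgeR 4.0.16 (R 4.3.3; filterByExpr, TMM, robust quasi-likelihood test, experiment as a term) over 19662 genes, with Benjamini-Hochberg adjustment over all of them and calls at 0.05. Experiment numbers pair the groups: the labels give each experiment its own batch of cells, and gene-wise experiment differences correlated between groups at 0.277 to 0.298. Technical replicates were compared on 12 libraries (17218 genes), where p-values measure technical spread. Levels are TMM-normalised CPM, without or with division by gene length. Approximate SEs are |log2 fold change| over the root of the F statistic. The fit on 6 summed libraries left 2 residual degrees of freedom, and its spread borrowed from all genes (median prior 24.0 degrees of freedom). Its SEs and p-values leave out the spread between technical replicates. The scripts were tested on simulated data.

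The members and lists were chosen with earlier results of these data known. Text names all 13 protein and both rRNA genes, tRNAs that passed the filter and those with the lowest and highest count, and listed nuclear genes fixed by role plus the 3 largest called changes each way at 5 CPM or more. Alternatives changed the tool (DESeq2 1.42.0, limma 3.58.1), scaling, filter, libraries and experiment term.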

Additional observations from a re-analysis of the deposited data

Results flagged for a closer look

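In 90 sets of 4 libraries, each of 1 member or of the mitochondrial share in 1 group, 6 held 1 library far from the others, where chance gives about 1 in 20. Replicate 2 of experiment 1 was the highest guide library for MT-ATP8 at 163 CPM, for MT-TL1 at 3.12 CPM and for MT-TS2 at 3.02 CPM. Replicate 1 of experiment 2 was the lowest dCas9-alone library for MT-RNR1 at 2100.2 CPM and the highest no-plasmid library for MT-RNR1 at 3054 CPM. Replicate 1 of experiment 1 was the highest no-plasmid library for MT-TA at 3.17 CPM.

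The log2 difference between replicate 2 and replicate 1 was larger in guide cells than in dCas9-alone cells for 12 members by edgeR's test of that difference. The excess in guide cells was 0.29 for MT-RNR1, 0.37 for MT-RNR2, 0.54 for MT-ND1, 0.41 for MT-ND2, 0.38 for MT-CO2, 0.47 for MT-ATP6, 0.48 for MT-CO3, 0.89 for MT-ND3, 0.87 for MT-ND4L, 0.33 for MT-ND4, 0.42 for MT-ND5 and 0.53 for MT-CYB. Against no-plasmid cells the excess in guide cells passed for 15 members. It was 0.43 for MT-RNR1, 0.45 for MT-RNR2, 0.81 for MT-ND1, 0.64 for MT-ND2, 0.62 for MT-CO2, 0.76 for MT-ATP6, 0.70 for MT-CO3, 1.29 for MT-ND3, 1.07 for MT-ND4L, 0.61 for MT-ND4, 0.56 for MT-ND5, 0.97 for MT-ND6 and 0.61 for MT-CYB, and for the tRNA genes MT-TI and MT-TP it was 2.47 and 1.1.

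Spike-in counts, which the comparisons leave out, made up 0.719% and 0.404% of the counts of the 2 no-plasmid libraries of experiment 1. Keeping them in the totals moved no fold of the mitochondrial share past the spread between experiments.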

How the results depend on the processing

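For dCas9-alone against no-plasmid cells, the median of the 15 genes stayed below 0 under all 22 alternatives. It was -0.61 with replicate 2 libraries alone. The 14 genes called lower became 2 with experiment 1 alone and 9 with experiment 2 alone, and 14 to 15 (median -0.80 to -0.67) when 1 library pair was left out. The fold of the mitochondrial share was 0.614 relative to nuclear protein-coding genes and 0.613 with replicate 1 alone. For guide over dCas9-alone cells, that fold was 1.29 without the rRNA genes or with protein genes alone, 1.04 with replicate 1 alone and 1.35 with replicate 2 alone. For guide over no-plasmid cells it was 0.738 relative to nuclear protein-coding genes, 0.824 without rRNA, 0.823 with protein genes alone, 0.639 with replicate 1 alone and 0.893 with replicate 2 alone.

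For guide over dCas9-alone cells, 1 gene was called higher on 12 libraries with an experiment term, against 4.61% of all genes. With experiment and technical replicate number as a replicate block it was 1, against 4.52%. Without the guide replicate 2 libraries it was 1, against 4.59%. The count was 0 with experiment 1 alone (1.38% of all genes), experiment 2 alone (0.882%) and replicate 1 alone (2.63%). It was also 0 when the main fit had no experiment term, where 0.00509% of all genes were higher. One gene was lower without guide replicate 2 and with replicate 1 alone, against 2.88% and 1.94% of all genes. The median was 0.30 on 12 libraries with the replicate block, 0.33 with DESeq2, RLE or nuclear scaling, 0.28 with library totals, 0.30 and 0.34 in experiments 1 and 2, 0.052 and 0.53 with replicates 1 and 2 alone, and 0.017 and 0.57 without guide replicates 2 and 1. Leaving out 1 library pair gave 12 to 14 higher, 0 to 1 lower and medians of 0.28 to 0.36. Without guide replicate 2, MT-ND1 (-0.0028), MT-ATP6 (-0.010), MT-CO3 (-0.0021), MT-ND6 (-0.013) and MT-CYB (-0.034) turned negative; with replicate 1 alone MT-TI (-0.18) and MT-CYB (-0.013) did.

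For guide over no-plasmid cells, no gene was called higher (0) in both 12-library fits, without guide replicate 2 or with replicate 1 alone. The same held in either experiment alone and when the main fit had no experiment term. Of all genes, 16.4% to 28.8% were higher in these settings. With replicate 2 alone 2 were higher, against 22.3% of all genes. The count lower was 8 on 12 libraries with an experiment term, 2 in experiment 1, 0 in experiment 2 and 6 with replicate 2 alone, and 13 to 14 with 1 library pair left out (medians -0.48 to -0.33). The median was -0.82 and -0.080 with replicates 1 and 2 alone, and -0.69 and -0.15 without guide replicates 2 and 1. Signs turned for MT-TI (-0.032) and MT-TY (-0.23) with replicate 1 alone, MT-CO1 (-9.7e-05) and MT-TS2 (-0.70) without guide replicate 2, MT-ND3 (0.12) without guide replicate 1, and MT-ND3 (0.30), MT-ND4L (0.038) and MT-TP (0.41) with replicate 2 alone.

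Between experiments 2 and 1, 0 genes were higher and 0 lower on 12 libraries, with or without the replicate block; 0 were higher with replicate 2 alone and 1 with DESeq2, and 3 lower with replicate 1 alone, where the median was 0.016 and MT-ATP6 (0.022) reversed. Leaving out 1 library pair gave 3 to 5 higher, 4 to 7 lower and medians of -0.07 to -0.02. For replicate 2 over 1 in all groups, that range was 0.06 to 0.22. The causes were not tested, beyond the smaller numbers of libraries. Technical replicate numbers do not pair libraries (correlations -0.0521 to 0.0734). The guide-library alternatives and the tests of the replicate gap within and between groups were chosen after seeing the data. Depth limits the tRNA genes, with at most 735 counts per library.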
